A study of Mus musculus with 6 samples.

Results

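The genes described here encode the enzymes that write, copy and remove DNA methylation: Dnmt1, Dnmt3a, Dnmt3b, Dnmt3l, Uhrf1, Tet1, Tet2, Tet3 and Tdg. They were chosen by name, as the rows of the deposited table that carry these 9 symbols, and all 9 were found among its 23284 genes. The study asked which genes are affected by knockdown of Tbx5ua, a long non-coding RNA transcribed divergently from a promoter of the cardiac transcription factor gene Tbx5. RNA-seq was made from heart ventricles of C57BL/6 mouse embryos at embryonic day 9.5 (E9.5), from 3 embryos labelled wild type (WT) and 3 embryos of genotype Tbx5ua -/- (KD). All embryos were tetraploid chimeras, in which the embryo proper develops from the injected ES cells (C57BL/6 J-derived in the KD group), so both groups passed through ES cell culture. In the KD ES cells, tandem polyadenylation signals inserted into the second exon on both alleles end Tbx5ua transcription early, and the selection markers had been removed with Cre recombinase. The study made KD embryos from more than one edited ES cell line. Which line each sequenced embryo came from, and how the WT ES cells were handled, is not given in the sources used here.

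Mammalian DNA methylation lies almost entirely on the cytosine of CG dinucleotides (CpGs). Dnmt1 copies the pattern onto the new strand after replication and is brought to hemimethylated CpGs by Uhrf1. Dnmt3a and Dnmt3b methylate unmodified sites, and Dnmt3l, which has no catalytic activity of its own, stimulates them in germ cells and ES cells. The TET proteins oxidise 5-methylcytosine, and Tdg, a DNA glycosylase, excises the most oxidised forms so that base excision repair restores an unmodified cytosine. In the embryo proper this machinery maintains imprints and silences germline genes.

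The deposited table has 1 value per gene and group in FPKM, the number of fragments divided by transcript length and by sequencing depth. Each value pools the 3 embryos of its group, and KD is headed KO. It holds no values of single embryos, no read counts and no library totals, so depth is unknown. No SD, interval or test could therefore be calculated here for any difference below. The authors' own comparison, with its p-values, is also in the table and was not used. FPKM is scaled to transcript length, but the libraries were amplified by PCR, and effects of this that differ between genes could not be checked here. Levels of different genes are therefore compared only as the values listed. A gene was kept where it reached 1 FPKM in either group, which held for 11606 genes. The values summed to 859452 FPKM in WT against 877889 FPKM in KD. All 12 cardiomyocyte markers were kept, with Tnnt2 at 1842 FPKM in WT against 1807 FPKM in KD, while liver albumin (Alb) was listed at 0 in both groups. The targeted RNA, Tbx5ua, is not analysed here, and the labels could not be checked on it.

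Since CpGs are the substrate of these enzymes, the sequence at the start sites of their own genes is shown first. RefSeq start-site windows (GRCm38.p6, 250 bases before to 50 after the start) were matched for 9 of the 9 genes, 16 windows in all because some genes have several starts. Dnmt1 has 3 of them. The distal one lies 7265 bases before the most proximal one, and Dnmt1 is known to use a separate upstream promoter in oocytes. The following 4 windows are given in the direction of the gene, with each CpG in capitals. They were chosen to set a CpG-rich beside a CpG-poor start of 1 gene, and to show the starts of the kept member with the largest difference (Dnmt3b) and of the member listed at 0 in WT (Dnmt3l).
Dnmt1, proximal start, chr9:20952574-20952873, minus strand: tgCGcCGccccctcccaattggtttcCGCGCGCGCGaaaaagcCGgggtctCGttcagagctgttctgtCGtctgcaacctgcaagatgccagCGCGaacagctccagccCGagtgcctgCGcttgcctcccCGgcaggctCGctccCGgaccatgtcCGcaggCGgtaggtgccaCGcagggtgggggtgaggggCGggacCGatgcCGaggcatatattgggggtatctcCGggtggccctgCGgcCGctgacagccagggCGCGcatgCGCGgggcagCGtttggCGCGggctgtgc
Dnmt1, distal start, chr9:20959839-20960138, minus strand: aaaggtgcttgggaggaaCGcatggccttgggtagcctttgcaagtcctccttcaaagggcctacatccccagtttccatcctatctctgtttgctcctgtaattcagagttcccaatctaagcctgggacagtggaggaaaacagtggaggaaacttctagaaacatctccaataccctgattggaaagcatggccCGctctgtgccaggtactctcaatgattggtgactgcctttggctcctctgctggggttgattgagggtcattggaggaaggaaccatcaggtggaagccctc
Dnmt3b, chr2:153649199-153649498, plus strand: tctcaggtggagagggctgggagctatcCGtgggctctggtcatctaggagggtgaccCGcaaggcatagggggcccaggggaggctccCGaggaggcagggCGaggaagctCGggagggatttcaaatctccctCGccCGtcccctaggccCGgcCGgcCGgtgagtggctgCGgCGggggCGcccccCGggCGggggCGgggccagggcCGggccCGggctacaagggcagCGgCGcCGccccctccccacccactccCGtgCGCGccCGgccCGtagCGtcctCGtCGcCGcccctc
Dnmt3l, first of its starts, chr10:78042037-78042336, plus strand: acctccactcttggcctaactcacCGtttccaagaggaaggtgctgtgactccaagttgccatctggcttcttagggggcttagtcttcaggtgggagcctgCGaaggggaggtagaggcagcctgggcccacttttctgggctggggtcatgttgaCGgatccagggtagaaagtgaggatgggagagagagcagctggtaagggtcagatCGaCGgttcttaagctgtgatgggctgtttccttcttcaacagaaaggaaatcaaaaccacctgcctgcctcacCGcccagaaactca

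The proximal Dnmt1 window holds 33 CpGs and the distal one 2. Of all 32851 windows in the RefSeq table, 8.56% hold at least 33 CpGs and 23.3% hold 2 or fewer. The Dnmt3b window holds 30 CpGs. The 3 Dnmt3l windows hold 6, 4 and 3 CpGs, below the median of 7 over all windows. Among the member windows counted, that of Tet2 has the most, with 57 CpGs, a number reached by 0.152% of all windows. The other TET genes have 17 CpGs (Tet1) and 22 CpGs (Tet3). Their windows surround internal starts, at chr10:62887324 for Tet1 and chr6:83441678 for Tet3. The annotated genes, both on the minus strand, begin at 62908996 and 83459084. CpGs at those ends were not counted. Each of the other 8 members has at least 1 window with 17 CpGs or more, so Dnmt3l is the only member with every window below that median. It is also the member listed at 0 in WT, and a link between its CpGs and its level was not tested. The table gives 1 value per gene and does not separate the starts.

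**Figure D1:**
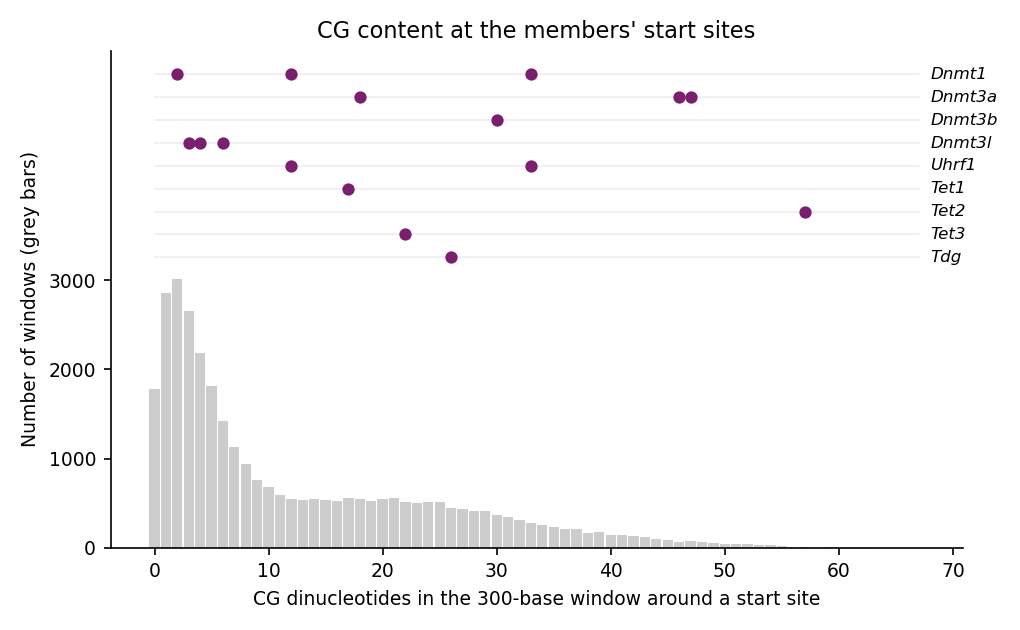
Number of CG dinucleotides in 300-base windows around RefSeq start sites (x axis, count per window). Grey bars give the number of windows (y axis) over all 32851 windows, and each dot above them is 1 window of the named gene, placed by its CpG count only. The Dnmt3l dots lie at 6, 4 and 3 CpGs, and the Tet2 dot lies at 57.

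The same windows were searched for TTTCGCGC and TTTGGCGC, motifs bound by the E2F factors of the cell cycle, on both strands. The motifs are 8 bases long and differ at a single base. In all, 0.813% of the 32851 windows hold either one, and 2 of the 16 member windows do, the proximal window of Dnmt1 and the downstream window of Uhrf1. Each match is given with the motif, or its reverse complement, in capitals.
Dnmt1, chr9:20952824-20952853, minus strand: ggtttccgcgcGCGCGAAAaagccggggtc
Dnmt1, chr9:20952574-20952601, minus strand: gcggggcagcgTTTGGCGCgggctgtgc
Uhrf1, chr17:56304117-56304146, plus strand: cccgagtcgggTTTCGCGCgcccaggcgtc
These are matches of letters in a window and say nothing of whether a factor binds there.

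The members spanned a wide range of levels. Uhrf1, the factor that recognises hemimethylated CpGs (chr17:56303321-56323486), was the highest, with 69.3 FPKM in WT against 63.2 FPKM in KD. In WT it stood at or above 86.5% of the kept genes. Dnmt1 (chr9:20907209-20959888) had 37.6 FPKM in WT against 35.5 FPKM in KD. The level of Uhrf1 was 1.84 times that of Dnmt1 in WT and 1.78 times in KD. The maintenance pair thus held the first and the second place in both groups, unless Tdg is counted with its retrocopy as described below.

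Of the de novo enzymes, Dnmt3a (chr12:3806007-3914443) had 20.9 FPKM in WT against 21.6 FPKM in KD. Dnmt3b (chr2:153649450-153687730) had 5.41 FPKM in WT against 3.77 FPKM in KD. Dnmt3a therefore had the higher listed level, at 3.87 times that of Dnmt3b in WT and 5.74 times in KD. Dnmt3l, the regulatory partner (chr10:78041947-78063622), was listed at 0 in WT and at 0.173 FPKM in KD. It was the 1 member that did not reach 1 FPKM, and with a group listed at 0 it is given no fold. Summed over the 4 DNMT genes, the level was 64.0 FPKM in WT against 61.1 FPKM in KD. Dnmt1 made up 58.8% of this in WT against 58.1% in KD, Dnmt3a held 32.7% and 35.4%, and Dnmt3b held 8.45% and 6.17%.

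The TET genes, which encode the dioxygenases of active demethylation, had the 3 lowest levels of the kept members in WT. In KD Dnmt3b lay below Tet3. Tet3 (chr6:83362373-83459084) had 3.74 FPKM in WT against 4.12 FPKM in KD. Tet1 (chr10:62804570-62908996) had 2.15 FPKM in WT against 2.21 FPKM in KD. Tet2 (chr3:133463679-133545139) had 1.59 FPKM in WT against 1.48 FPKM in KD. The order Tet3, Tet1, Tet2 was thus the same in both groups, with Tet3 holding 49.9% of the TET sum in WT against 52.7% in KD. The DNMT sum was 8.55 times the TET sum in WT and 7.82 times in KD.

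Tdg, the glycosylase (chr10:82629828-82650799), had 32.1 FPKM in WT against 26.8 FPKM in KD, between Dnmt1 and Dnmt3a. In WT the order from high to low was Uhrf1, Dnmt1, Tdg, Dnmt3a, Dnmt3b, Tet3, Tet1, Tet2 and Dnmt3l. In KD it was the same but for Tet3, which stood above Dnmt3b. The level of Dnmt3b was 1.45 times that of Tet3 in WT and 0.916 times in KD. Without values of single embryos, it cannot be said which neighbours in this order differ beyond their spread.

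**Figure D2:**
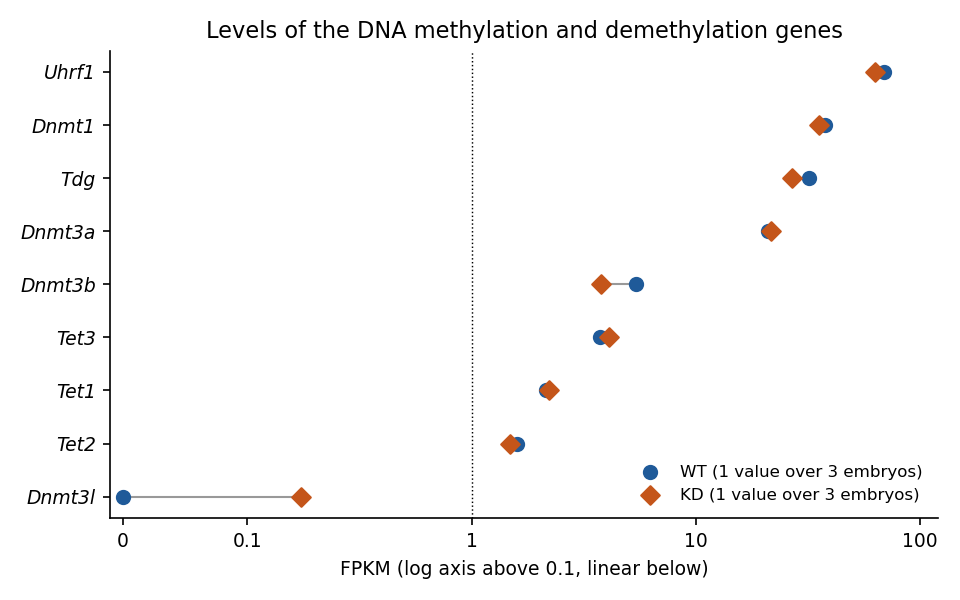
Level of each gene in WT (circles) and KD (diamonds), in FPKM on an axis that is logarithmic above 0.1 and linear below it. Each symbol is the authors' 1 value over 3 embryos, with no error available, and the dotted line marks 1 FPKM. Levels run from 69.3 FPKM for Uhrf1 in WT to Dnmt3l, listed at 0 in WT, and the widest gap between the groups among kept genes on this axis is that of Dnmt3b.

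Differences between the groups were calculated as log2(KD + 0.1) minus log2(WT + 0.1), so that 0.1 FPKM was added to each value, which slightly understates the difference of low genes. A fold of 1.5 on this scale was used as a mark of size, not as a test. Of all 11606 kept genes, 7.58% passed it in either direction, 520 (4.48%) higher and 360 (3.1%) lower in KD. Of the 8 kept members, 0 passed it, a count that at this background share is no result about the members. Of the 8, 3 were higher and 5 lower in KD, and their median difference was -0.092 on the log2 scale, against 0.0049 over all kept genes, of which 50.9% were higher and 49.1% lower in KD. In bulk tissue a change in the share of cells that express a gene and a change of RNA per cell cannot be told apart.

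Dnmt3b had the largest difference of the kept members, -0.51 on the log2 scale, a KD level 0.697 times that of WT. It lay just inside the 1.5-fold mark. At a mean level of 2 to 5 FPKM, where Dnmt3b lies, 9.42% of 2313 genes passed 1.5-fold and the median absolute difference was 0.21, so differences of this kind are more common at its level than among abundant genes. Of the 8 kept members, 1 (Dnmt3b) was past a fold of 5/4, a mark that 21.5% of all kept genes passed. Dnmt3b and Dnmt3l are also known as genes of pluripotent cells, and the chimeras derive from ES cells, so the pluripotency markers are given beside them. Of 10 such markers, 2 were kept. Nanog had 1.60 FPKM in WT against 1.41 FPKM in KD. Tdgf1 had 2.19 FPKM in WT against 0.720 FPKM in KD, a difference of -1.48 on the log2 scale, at a mean level of 1 to 2 FPKM where 21.4% of genes passed 1.5-fold. Pou5f1, the defining factor of pluripotency, had 0.131 FPKM in WT against 0.108 FPKM in KD. At any level, 7 of the 10 were lower and 3 higher in KD, with Tfcp2l1 at 0.165 FPKM in WT against 0.438 FPKM in KD. Summed over the 10 markers, the level was 5.32 FPKM in WT against 3.48 FPKM in KD, and without Tdgf1 it was 3.12 FPKM in WT against 2.76 FPKM in KD. Their part in the Dnmt3b difference was not tested.

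Among the maintenance factors the difference was -0.13 for Uhrf1 and -0.083 for Dnmt1 on the log2 scale. Both genes are known to be transcribed most in S phase. In a list of 16 S phase and proliferation genes, 14 were lower and 2 higher in KD, with a median of -0.13, where 49.1% of all kept genes were lower. Their summed level was 1611 FPKM in WT against 1479 FPKM in KD. Of the 16, 0 passed 1.5-fold, a mark that 7.58% of all kept genes passed, so the count is no result about the list. The lowest differences of this list were those of Ccne2 (-0.26), a cyclin of S phase entry, and Mki67 (-0.23), a proliferation marker. The highest were those of the transcription factor E2f1 (0.34) and the thymidine kinase gene Tk1 (0.15). The part of proliferating cells in the Uhrf1 and Dnmt1 values was not tested.

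Dnmt3a differed by 0.048 on the log2 scale, Tet1 by 0.038, Tet3 by 0.14 and Tet2 by -0.10. For Tet2, with a mean level between 1 and 2 FPKM, the median absolute difference of the 1349 genes at that level was 0.30. At 20 to 50 FPKM, the level of Dnmt3a, Dnmt1 and Tdg, it was 0.12 over 1860 genes. At 50 to 100 FPKM, the level of Uhrf1, it was 0.092 over 843 genes. The differences of Dnmt3a and Dnmt1 were smaller than the median at their level, and those of Tdg and Uhrf1 were larger.

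**Figure D3:**
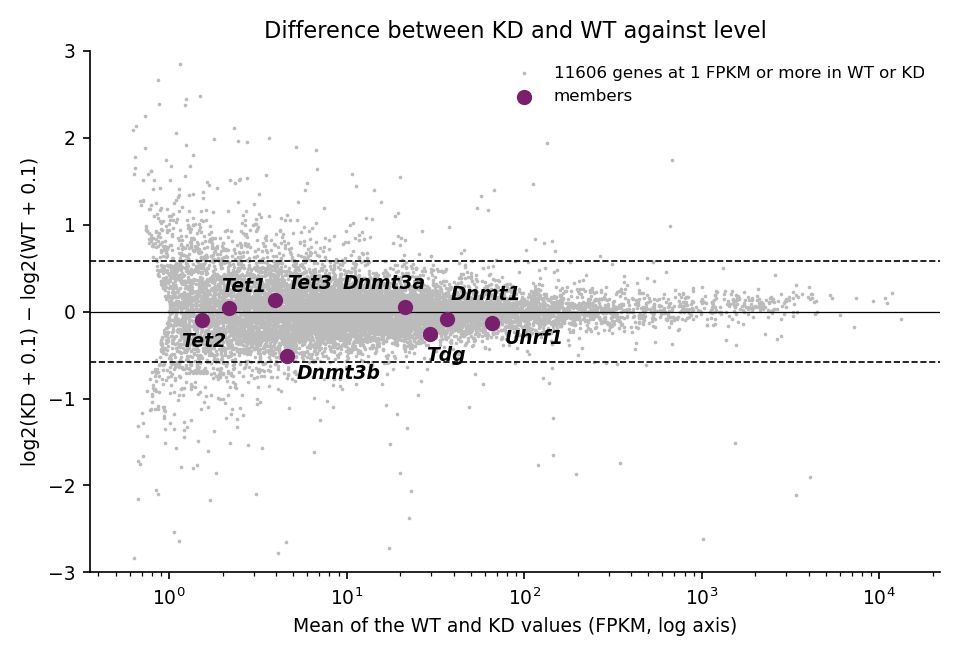
Difference between KD and WT (y axis, log2 scale with 0.1 FPKM added) against the mean of both group values (x axis, FPKM, log axis). Grey dots are the 11606 kept genes, of which 65 lie beyond the plotted range, purple dots are the 8 kept members, and dashed lines mark 1.5-fold. All 8 lie between the dashed lines, with Dnmt3b at -0.51 the lowest and Tet3 at 0.14 the highest.

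Tdg differed by -0.26 on the log2 scale, the second largest size among the kept members, but its value depends on how reads were divided. The table holds another row, Gm9855, at the same locus as Tdg (chr10:82629838-82690650 in the table, which also takes in Glt8d2). RefSeq lists Gm9855 as a synonym of Tdg-ps2, a transcribed pseudogene, and GENCODE places the processed pseudogene elsewhere, at chr10:42054113-42055306. The GENCODE transcript of Gm9855 aligned to the Tdg coding sequence over 1191 bases with 9 differences, an identity of 99.2%, and 93.9% of the aligned bases lay in identical runs of at least 50 bases. The 90-base stretch with the most differences, at bases 1012 to 1101 of the Tdg coding sequence, is shown because it is the part that best separates the pair. The 4 differing bases are in capitals.
Tdg: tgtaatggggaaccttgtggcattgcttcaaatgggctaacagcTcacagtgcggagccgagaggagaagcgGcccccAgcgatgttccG
Gm9855: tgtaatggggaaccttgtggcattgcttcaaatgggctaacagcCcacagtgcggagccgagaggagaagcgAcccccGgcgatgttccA

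The Gm9855 row had 44.3 FPKM in WT against 46.7 FPKM in KD, more than Tdg itself. Its difference was 0.077 on the log2 scale, opposite in sign to that of Tdg. Summed, the pair had 76.4 FPKM in WT against 73.5 FPKM in KD, a difference of -0.056. Tdg made up 42.0% of it in WT against 36.4% in KD. The Tdg values are therefore uncertain, and which of the sequences the reads came from cannot be read from the table.

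**Figure D4:**
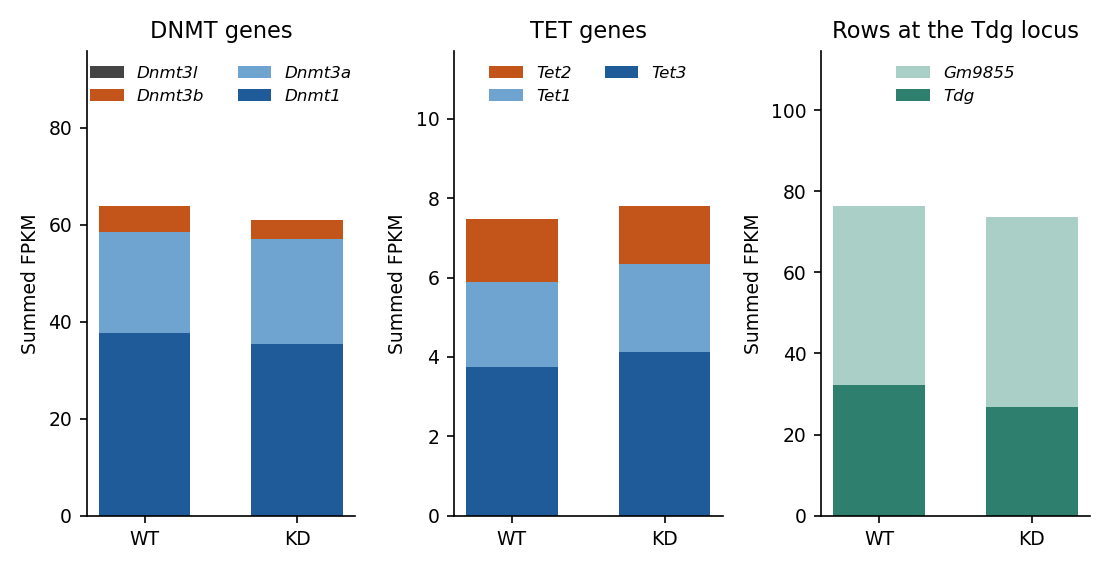
Summed levels in FPKM (y axes, from 0, a separate scale in each panel) in WT and KD for the 4 DNMT genes, the 3 TET genes, and the Tdg and Gm9855 rows, with each gene as a coloured segment. The DNMT sum is 64.0 FPKM in WT against 61.1 FPKM in KD, the TET sum is 7.48 FPKM and 7.81 FPKM, and the Tdg segment is smaller in KD while the Gm9855 segment is larger.

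Other members overlap genes of the opposite strand, and Smart-Seq2 libraries do not keep the strand of the RNA. The Dnmt3a antisense RNA Dnmt3aos, listed under its older name Gm10485, had 0.0623 FPKM in WT against 0.0377 FPKM in KD. B230319C09Rik, which overlaps the 5′ part of Tet3, had 0.0720 FPKM in WT against 0.0425 FPKM in KD. Aire, which overlaps the start of Dnmt3l, had 0.0138 FPKM in WT against 0.0101 FPKM in KD. These levels are small beside those of Dnmt3a and Tet3. For Dnmt3b and Tet2, GENCODE holds opposite-strand RNAs (Dnmt3bos and Gm42567) that carry no row under these names in the table.

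The partners of these enzymes were described from lists, each by its members at 1 FPKM or more in either group. Of 9 maintenance partners, 0 passed 1.5-fold, 6 were lower and 3 higher in KD, and the median was -0.10. The lowest were the deubiquitinase gene Usp7 (-0.18) and Cdca7 (-0.15), and the highest were the histone methyltransferase gene Ehmt2 (0.18) and the ligase gene Lig1 (0.0061). Of 8 kept genes for imprint and retroelement silencing, 0 passed, with a median of -0.096. They ran from Zfp445 (-0.23) and Zfp57 (-0.18), zinc finger genes of imprint maintenance, to Daxx (0.047) and the corepressor gene Trim28 (0.21). Over all kept genes 7.58% passed the mark, and at that share these counts are no result about the lists.

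The proteins that read CpGs or methylated CpGs had the highest median of the pathway lists, 0.17 over 12 kept genes. Of the 12, 7 were higher and 5 lower in KD, and 1 passed 1.5-fold. That gene was Zbtb38, a zinc finger reader of methylated DNA, with 2.89 FPKM in WT against 1.69 FPKM in KD, a difference of -0.74, at a mean level of 2 to 5 FPKM where 9.42% of genes passed. The next lowest was Zbtb33 (-0.24). The highest was the methyl-CpG binding gene Mbd2, with 8.57 FPKM in WT against 11.3 FPKM in KD (0.40).

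Downstream of Tdg, base excision repair had a median of -0.011 over 12 kept genes. The count past 1.5-fold was 0, no result about the list at the 7.58% share over all kept genes. The highest were the glycosylase genes Nthl1 (0.47) and Mutyh (0.36), and the lowest were the glycosylase genes Smug1 (-0.25) and Ogg1 (-0.24). Of the deaminase and Gadd45 genes, 5 of 7 were kept, and 1 passed. Gadd45a, a damage-inducible gene proposed to take part in demethylation, had 1.23 FPKM in WT against 2.22 FPKM in KD, a difference of 0.80. At its mean level, 1 to 2 FPKM, 21.4% of genes passed 1.5-fold. Its relatives differed by 0.082 (Gadd45g) and -0.18 (Gadd45b), and Apobec3 by -0.071.

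Both kinds of enzyme depend on small metabolites. Of 14 kept genes of methyl donor supply, which feed S-adenosylmethionine to the DNMT enzymes, 1 passed 1.5-fold, and the median was 0.0070. Gnmt, a glycine methyltransferase that consumes the methyl donor, had 2.18 FPKM in WT against 1.06 FPKM in KD, a difference of -0.98, at the same mean level of 1 to 2 FPKM where 21.4% of genes passed. The next lowest was Mtap (-0.25), and the highest were Mtr (0.31) and Shmt2 (0.29). For 2-oxoglutarate, the cosubstrate of the TET enzymes, 12 genes were kept, 11 of them lower in KD (49.1% over all kept genes), with a median of -0.098. Of the 12, 0 passed 1.5-fold, no result about the list at the 7.58% share over all kept genes. Ogt, a partner of the TET proteins, differed by -0.22, and Idh1 (0.29) was the 1 gene that was higher. Idh2 was the next highest of the list, at 388 FPKM in WT against 387 FPKM in KD.

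**Figure D5:**
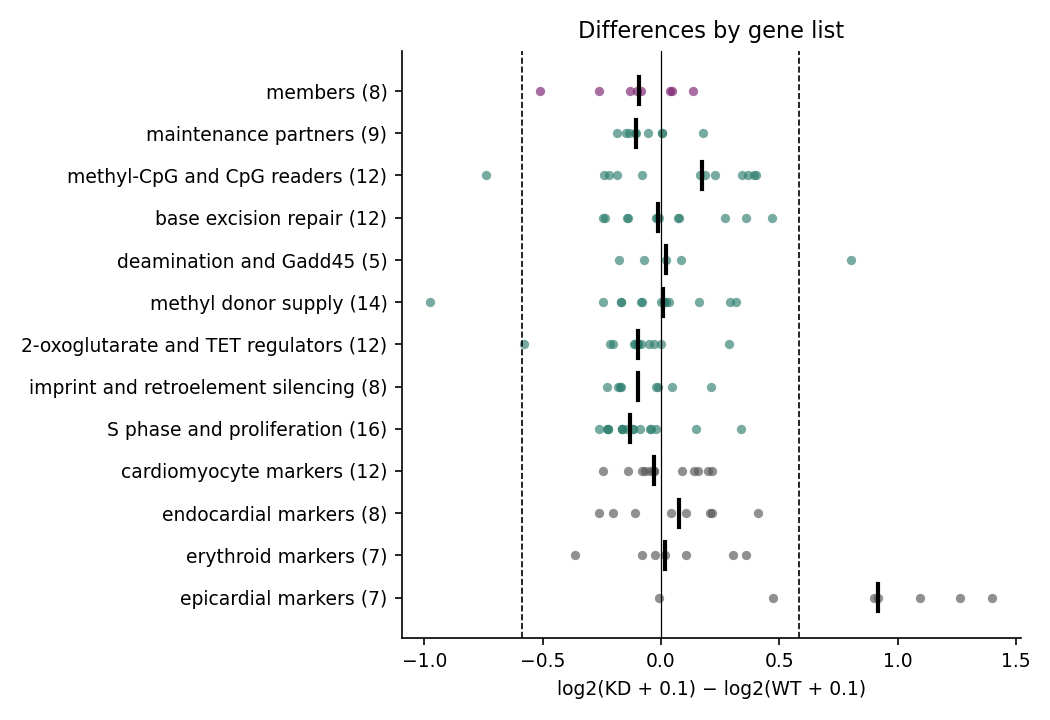
Difference between KD and WT (x axis, log2 scale with 0.1 FPKM added) for each kept gene of the members, the pathway lists and the cell type marker lists, with the number of kept genes in parentheses. Dots are genes, black bars are medians and dashed lines mark 1.5-fold. The member median is -0.092, and the epicardial median is 0.92.

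Genes that DNA methylation silences in somatic cells were read as targets of the members. Of 16 germline genes of this kind, 0 reached 1 FPKM in either group. The highest was Ddx4, the germ cell helicase, with 0.839 FPKM in WT against 0.833 FPKM in KD. Their summed level was 3.10 FPKM in WT against 2.59 FPKM in KD, and 3 of the 16 were listed at 0 in both groups. At an unknown depth these low values do not show whether the genes differ.

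Marker lists of the cell types in the ventricle give the setting of the member values. Medians were -0.028 for 12 cardiomyocyte markers, 0.074 for 8 endocardial markers and 0.016 for 7 erythroid markers. In each list 0 genes were past 1.5-fold, where 7.58% of all kept genes were, so these counts are no result about the lists. Of 7 kept epicardial markers, 5 were past 1.5-fold, all higher in KD, as were 4.48% of all kept genes. The summed level of all 8 was 158 FPKM in WT against 207 FPKM in KD. Krt19, a keratin gene, held most of that sum, with 111 FPKM in both groups, and without it the sum was 47.1 FPKM in WT against 96.0 FPKM in KD. The 5 genes were Upk3b (1.40), Upk1b (1.26), Tcf21 (1.09), Aldh1a2 (0.92) and Tbx18 (0.90). Aldh1a2, with 0.872 FPKM in WT against 1.74 FPKM in KD, was kept by its KD value alone. At its mean level, 1 to 2 FPKM, 21.4% of genes passed 1.5-fold. Of the hepatic and yolk sac markers, 1 of 8 was kept, with a summed level of 4.49 FPKM in WT against 6.02 FPKM in KD. Of the neural crest markers, 2 of 6 were kept, with a summed level of 10.9 FPKM in WT against 11.5 FPKM in KD. The part of these cell types in the member values was not tested.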

How the data were processed

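RNA-seq libraries from 3 WT and 3 KD embryos were assigned to groups from their titles. Per the labels, the submitters' processing notes name TopHat, Bowtie2, Cuffdiff and the build mm10 (GRCm38); versions and annotation are not given in the sources used here. The authors deposited 1 table from Cuffdiff with an FPKM value per gene and group. Its 5 columns of the authors' own comparison (fold change, test score, p-value, q-value and call) were not used. The number of single-embryo columns left unused is 0.

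From the deposited FPKM values, log2 differences were calculated with a pseudocount of 0.1 for genes that reached 1 FPKM in WT or KD. With 1 value per group no test could be calculated, and the authors' own test was not used. Every member was named. From each pathway list the 2 highest and 2 lowest differences and each gene past 1.5-fold were named, from marker lists the genes past 1.5-fold, except for a few genes that are not reported here. Further names were picked with their values known. The members and lists were chosen with earlier results of these data known. Positions are from GENCODE M21 (GRCm38). Of 20862 genes matched by symbol, 99.1% overlapped the annotated gene. Tdg and Gm9855 were aligned locally (match 2, mismatch -3, gap open -6, gap extend -1). The alternatives were other pseudocounts, filters, scalings and folds, rows with no shared locus, and Tdg summed with Gm9855. Calculations were tested on simulated data. Biopython 1.88, pandas 2.3.3, NumPy 2.4.6, SciPy 1.17.1 and Matplotlib 3.10.9 were run under Python 3.11.15.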

Additional observations from a re-analysis of the deposited data

How the results depend on the processing

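No paired analysis was possible because only 1 pooled value per group was deposited. For the same reason fits without each replicate were not run. Other pseudocounts, filters and folds and the subset of rows leave the sign of a gene's difference fixed, so they do not test it. The scalings all lowered KD relative to WT, so only members higher in KD could change sign under them, and none did. The Tdg difference stayed negative when summed with Gm9855. Dnmt3a, Dnmt3l and Tdg have no value over rows with no shared locus, nor Dnmt3l without a pseudocount. The sizes did vary. With KD scaled to the housekeeping genes, the difference of Tet1 fell from 0.038 to 0.0027 and that of Dnmt3a from 0.048 to 0.011. The count of members past the mark, 0, became 1 at a fold of 5/4 (Dnmt3b) and 1 with no filter on low values. The latter is Dnmt3l, listed at 0 in WT, where the pseudocount sets the size. The median of -0.092 over the members became -0.073 with a pseudocount of 1, -0.095 with none, -0.13 at 5 FPKM or more, -0.083 with no filter, -0.097 with KD scaled to a median difference of 0, -0.12 with both groups scaled to the same sum, -0.13 with KD scaled to the housekeeping genes, and -0.069 with Tdg and Gm9855 summed, an alternative chosen after seeing the data. The last took the Tdg difference from -0.26 to -0.056. A median is listed where its value rounded to 2 decimals changed, as no error is known. The share of all kept genes past the mark, 7.58%, became 3.66% with a pseudocount of 1, 4.58% with 1 FPKM or more in both groups, 3.51% at 5 FPKM or more, 16.2% with no filter, 2.49% at a fold of 2, 21.5% at a fold of 5/4 and 6.92% over rows with no shared locus. The cause was not tested. Depth is unknown, so the values of the members with low levels, Dnmt3l, the TET genes and Dnmt3b, are uncertain to an unmeasured degree.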

Other observations

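Some genes of the same pathways were abundant in the ventricle in both groups and were named after their values were seen. Apobec2, a muscle-expressed member of the deaminase family, had 281 FPKM in WT against 285 FPKM in KD. Mat2a, which makes S-adenosylmethionine, had 129 FPKM in WT against 122 FPKM in KD. Ahcy, which removes the product of methylation reactions, had 83.7 FPKM in WT against 74.5 FPKM in KD. Pcna, the replication clamp that also binds Dnmt1, had 264 FPKM in WT against 240 FPKM in KD, and Hells, a chromatin remodeller needed for DNA methylation, had 17.6 FPKM in WT against 17.7 FPKM in KD. These genes had differences under 1.5-fold.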
